A study of Mus musculus with 30 samples.

Results

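Of the 41128 genes in the deposited kidney counts, 10 were followed here, chosen by name for their part in the reabsorption of sodium along the distal nephron: Slc12a1, Slc12a3, Scnn1a, Scnn1b, Scnn1g, Umod, Wnk1, Wnk4, Sgk1 and Stk39. They and all lists below were chosen with earlier results of these data known. Where a count of called genes stands beside the share of all genes, it is a description. The mRNA of the 10 was measured by sequencing rRNA-depleted total RNA from single kidneys of 16 male mice, 4 in each of 4 groups. The KO removes floxed Egfr from vascular smooth muscle through a Cre recombinase that the smooth muscle promoter Smmhc drives and tamoxifen switches on; in WT mice that Cre finds no floxed Egfr. The background was taken as C57Bl6J, whereas the paper names C57BL/6 floxed mice and C57BL/6N Cre mice as the parents. Both genotypes received tamoxifen, so nothing here compares treated with untreated mice. From 6 weeks of age they were fed a standard fat diet (SFD) or a high fat diet (HFD) for 18 weeks. The groups are called WT-SFD, WT-HFD, KO-SFD and KO-HFD. The deletion is not aimed at tubule cells, and the labels give the tissue as kidney, without saying whether pieces held cortex, medulla or both.

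In the thick ascending limb, sodium enters tubule cells with potassium and chloride through the cotransporter that Slc12a1 encodes, the target of loop diuretics, and the same cells secrete uromodulin, the product of Umod. Further on, the distal convoluted tubule takes up sodium with chloride through the thiazide-sensitive cotransporter encoded by Slc12a3. The connecting tubule and collecting duct use the amiloride-sensitive epithelial sodium channel (ENaC), whose subunits are encoded by Scnn1a, Scnn1b and Scnn1g. Kinases encoded by Wnk1, Wnk4 and Stk39 act in sequence on both cotransporters, and the aldosterone-induced kinase encoded by Sgk1 keeps ENaC at the cell surface.

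The genes lie on 6 chromosomes of mm10. In GENCODE vM21 they are protein-coding, with Slc12a1 at chr2:125152505-125230002 on the plus strand, Stk39 at chr2:68210445-68472268 on the minus strand, Scnn1a at chr6:125320659-125344943 on the plus strand and Wnk1 at chr6:119923969-120038672 on the minus strand. Scnn1g at chr7:121734479-121768475 and Scnn1b at chr7:121865038-121918514 lie close together on the plus strand of chromosome 7, which also holds Umod at chr7:119462711-119479282 on the minus strand. Slc12a3 spans chr8:94329201-94366214, Sgk1 spans chr10:21882184-21999903 and Wnk4 spans chr11:101260567-101277409, all on the plus strand. Exons of Wnk4 overlap those of Gm11615 on the other strand, which took 701 counts over all 16 kidneys against 4468 to 10226 for Wnk4 in each kidney. Exons of Umod also overlap an opposite-strand gene that the count table does not list. The strand setting of the counting is not given in the sources used here, so reads of such pairs cannot be told apart. Wnk1 has a full-length and a shorter, kidney-specific form, which counts per gene add together.

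RefSeq promoters (GRCm38.p6, 250 bases before to 50 after a start) were given for 9 of the 10 genes, all but Scnn1a. The 3 shown belong to the genes whose mRNA moved with diet in the KO kidney, Slc12a3 at chr8:94328958-94329257 and Wnk4 at chr11:101260317-101260616, both on the plus strand, and to Umod at chr7:119479213-119479512 on the minus strand, the most abundant of the 10. Capitals mark GTTAAT, a core motif of the HNF1 factors.
Slc12a3: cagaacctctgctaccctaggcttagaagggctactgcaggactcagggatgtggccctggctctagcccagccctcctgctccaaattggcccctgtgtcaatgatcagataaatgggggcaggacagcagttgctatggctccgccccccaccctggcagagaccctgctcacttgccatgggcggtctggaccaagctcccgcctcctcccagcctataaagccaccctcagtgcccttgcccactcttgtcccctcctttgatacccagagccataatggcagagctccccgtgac
Wnk4: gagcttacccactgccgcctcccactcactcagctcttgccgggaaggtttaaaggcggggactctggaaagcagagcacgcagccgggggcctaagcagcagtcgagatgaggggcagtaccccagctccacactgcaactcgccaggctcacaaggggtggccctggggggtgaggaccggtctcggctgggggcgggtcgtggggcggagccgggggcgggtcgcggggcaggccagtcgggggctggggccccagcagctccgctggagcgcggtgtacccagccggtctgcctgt
Umod: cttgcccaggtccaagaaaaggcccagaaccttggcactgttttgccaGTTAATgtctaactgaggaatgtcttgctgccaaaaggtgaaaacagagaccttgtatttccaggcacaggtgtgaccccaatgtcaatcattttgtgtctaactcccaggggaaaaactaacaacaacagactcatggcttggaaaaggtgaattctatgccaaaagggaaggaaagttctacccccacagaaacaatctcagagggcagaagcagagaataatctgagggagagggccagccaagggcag
Both strands were searched. GTTAAT was in the Umod promoter alone among the 14 starts listed for the 9 genes and in 7.1% of 32851 RefSeq promoters of this length. The steroid receptor core motif TGTTCT was found at 3 of the 6 starts of Sgk1, with 3 copies at one of them, and in 19.0% of all promoters. The nuclear receptor core motif AGGTCA was found once in the Scnn1b promoter and at 2 starts of Sgk1, against 16.3% of all promoters. None of the 3 motifs was found in the Slc12a3 and Wnk4 windows.

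The total count per kidney was 16354880 to 28331314, with a median of 19544128. All 10 genes were among the 15034 that passed the filter on low counts. The smallest count of any of the 10 in a kidney was 419, for Scnn1g. Levels are given as FPM, fragments per 1000000 counted, scaled for composition with TMM (factors of 0.9 to 1.1 per kidney). A gene is called changed when edgeR's quasi-likelihood test gave an adjusted p under 0.05 over all 15034 genes tested. Nothing in the labels says whether kidneys of a group shared a litter, a day or a batch. The mRNA of Egfr in whole kidney gave a log2 difference of 0.00 between KO and WT averaged over diets (adjusted p = 0.998), with 50.4 ± 8.13 FPM in WT-SFD, 53.6 ± 5.77 in KO-SFD, 45.9 ± 8.3 in WT-HFD and 43.1 ± 2.08 in KO-HFD (mean ± SD, n = 4). Whole kidney does not check a deletion aimed at smooth muscle.

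One kidney stood apart. KO-HFD mouse 3 had the lowest Slc12a1 (419 FPM), Umod (2543 FPM) and Stk39 (30.1 FPM) of all 16 kidneys and the highest Slc12a3 (1058 FPM) and Scnn1b (72.0 FPM). Its summed level of 5 genes of medullary osmolyte and urea handling (Akr1b3, Slc5a3, Slc6a12, Slc14a2, Slc4a11) was 60.6 FPM, against 130 to 470 FPM in the other 15 kidneys. In those 5 genes, all counted and none at 0, Slc5a3 was the most abundant. KO-HFD mouse 4 came next in low Slc12a1 (808 FPM) and high Slc12a3 (850 FPM), with a medullary sum of 142 FPM. How much the share of medulla in a piece took part in any result was examined only by a fit with the medullary genes as covariate and by leaving KO-HFD mouse 3 out. In bulk tissue, fewer cells of a type and less RNA per cell cannot be told apart.

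**Figure D1:**
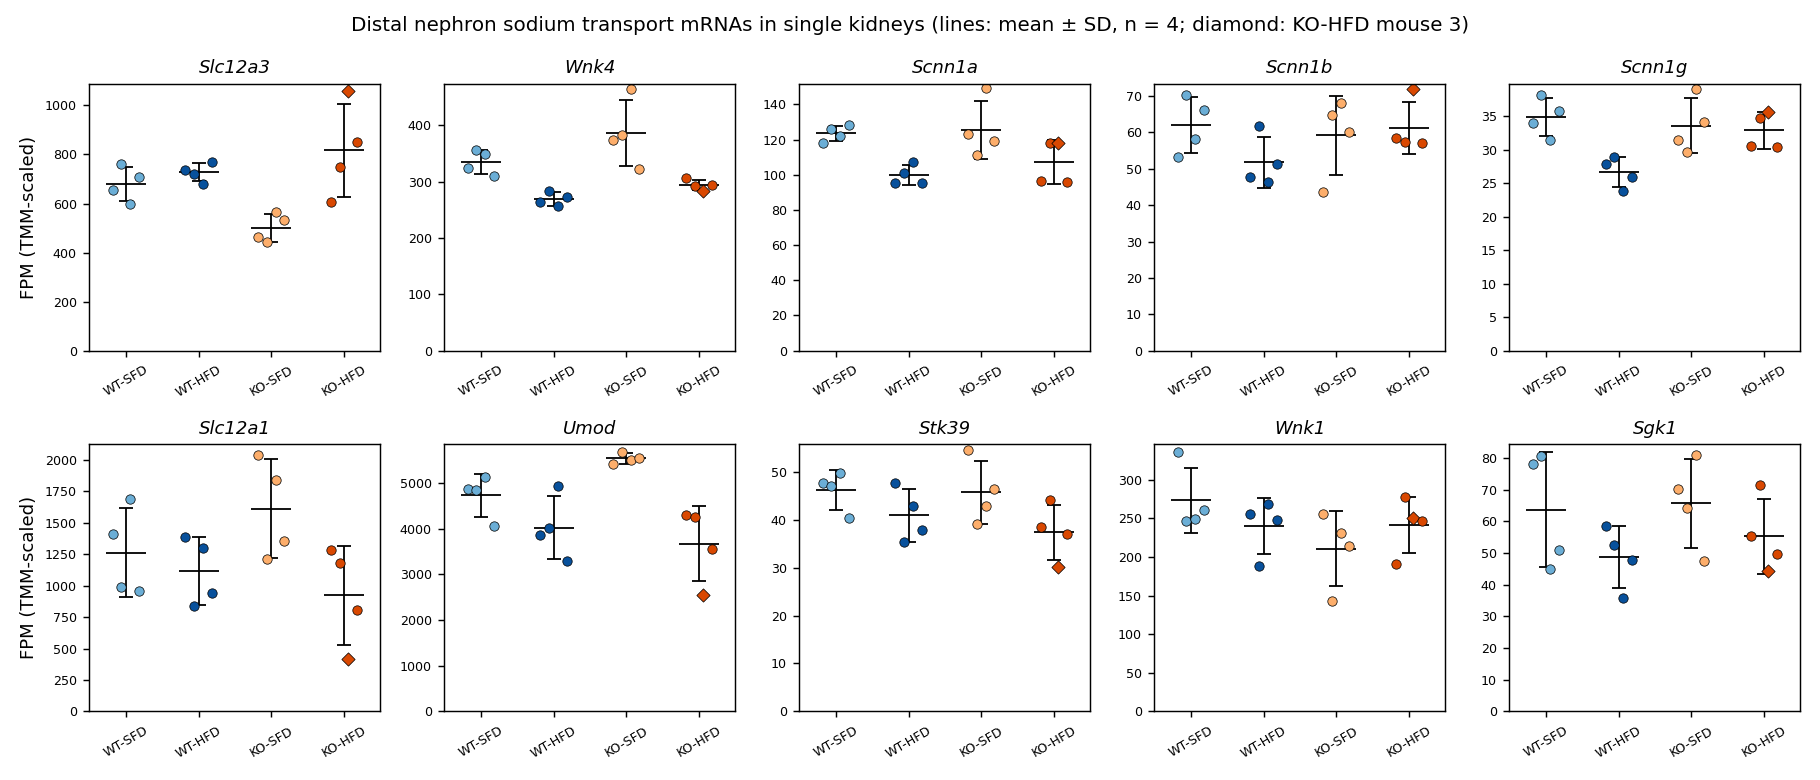
FPM of the 10 mRNAs (y axes from 0) in each of 16 kidneys by group (x axes), with mean and SD of 4 mice as lines and KO-HFD mouse 3 as a diamond. Slc12a3 is lowest in KO-SFD (443 to 564 FPM), all 8 HFD kidneys lie below all 8 SFD kidneys for Wnk4, and the diamond is the lowest point for Slc12a1, Umod and Stk39.

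Per kilobase of exon, Umod was by far the most abundant of the 10, at 1630 ± 328 FPM per kb (mean ± SD over 16 kidneys), followed by Slc12a1 at 213 ± 71.4, Wnk4 at 77.5 ± 13.0 and Slc12a3 at 61.3 ± 13.7. Of the ENaC subunits, Scnn1a reached 27.6 ± 3.6, Scnn1b 22.2 ± 3.26 and Scnn1g 10.7 ± 1.42 FPM per kb. Sgk1 (11.9 ± 2.9), Wnk1 (10.6 ± 1.9) and Stk39 (8.59 ± 1.26 FPM per kb) made up the low end. By exon length, Umod, Slc12a1 and the pair of Wnk4 and Slc12a3 were separated by more than their SDs. Wnk4 and Slc12a3, and the 4 genes from Sgk1 down, were not. The order depends on the length used: with the longest coding transcript, Slc12a3 came to 158 ± 35.4 and passed Wnk4 at 78.1 ± 13.1 FPM per kb. Slc12a1 then came to 259 ± 86.8 FPM per kb, and its SD range overlapped that of Slc12a3. At the low end, Wnk1 came to 21.3 ± 3.82 and Sgk1 to 18.8 ± 4.6, and Scnn1g, at 10.7 ± 1.42 FPM per kb, was then the lowest of the 10. Between mice, Slc12a1 varied most, with a coefficient of variation of 33.5% over the 16 kidneys, and Scnn1a (13.1%) and Scnn1g (13.3%) least.

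The first question was whether 18 weeks of HFD changed this set. In WT kidneys, 9 of the 10 mRNAs were lower on HFD, Slc12a3 being the exception, but none passed the edgeR test, which 0.964% of all genes did. Of the 10, 3 had an unadjusted p under 0.05 (Scnn1a, Scnn1g and Wnk4), as did 1210 of the 15034 genes tested, and in these 3 all HFD kidneys lay below all SFD kidneys, as in 1.99% of all genes. DESeq2 called 1, Scnn1g, beside 263 genes in the whole table. The median log2 fold change of the 10 was -0.25, and that of all genes 0.00. In KO kidneys 2 of 10 passed, against 2.39% of all genes: Slc12a3 rose and Wnk4 fell. DESeq2 called 3 of 10 in KO (Slc12a3, Umod and Wnk4), beside 695 genes in the whole table. With the diet effects of both genotypes averaged, 3 of 10 passed, against 4.62% of all genes: Slc12a3 rose, and Wnk4 and Scnn1a fell. For this average, DESeq2 called 4 of 10 (Slc12a3, Scnn1a, Umod and Wnk4), beside 1101 genes. In KO, the median log2 fold change of the 10 was -0.24, with 7 of 10 negative, and 6 had an unadjusted p under 0.05, as did 2427 of the 15034 genes. The averaged comparison uses the same kidneys as the other 2 and is no separate evidence. Because the 10 were chosen with earlier results known, their counts beside the share of all genes are descriptive only.

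**Figure D2:**
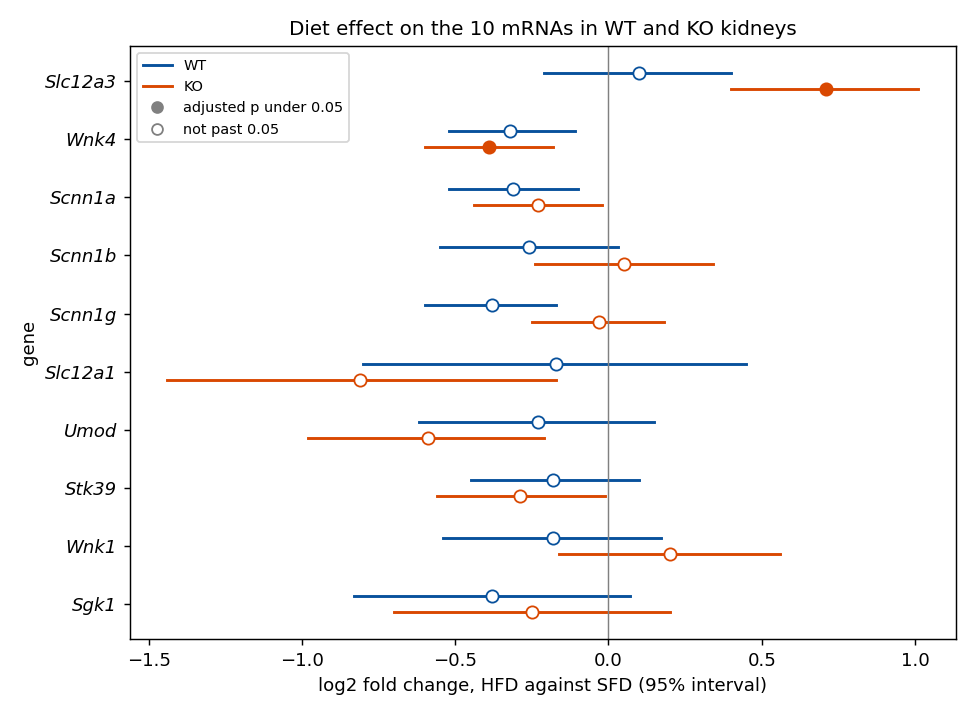
Log2 fold change of HFD against SFD (x axis) with 95% interval for each of the 10 genes (y axis) in WT (blue) and KO (orange) kidneys; filled points passed an adjusted p under 0.05. The 2 filled points are Slc12a3 (0.71) and Wnk4 (-0.39), both in KO, and 9 of 10 WT points lie left of 0.

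Slc12a3 encodes the sodium-chloride cotransporter of the distal convoluted tubule. On SFD, the 4 WT kidneys held 654, 760, 599 and 709 FPM and the 4 KO kidneys 463, 443, 564 and 531 FPM. On HFD, WT kidneys held 737, 722, 680 and 771 FPM and KO kidneys 608, 750, 1058 and 850 FPM. The KO-SFD kidneys were thus the lowest group, below every other kidney of the study. In KO, Slc12a3 was higher on HFD by 0.71 on the log2 scale (95% interval 0.40 to 1.01, 1.63-fold, edgeR adjusted p = 0.0124), and no HFD kidney overlapped with an SFD kidney, which held for 8.87% of all genes. In WT, the same comparison gave 0.10 (-0.21 to 0.40, adjusted p = 0.973). The difference between these diet effects was 0.61 (interval 0.18 to 1.04), with an unadjusted p of 0.00815 and an adjusted p of 1, so a difference between the genotypes was not shown. KO against WT on SFD gave -0.44 (-0.75 to -0.14, unadjusted p = 0.00683, adjusted p = 0.444), without overlap between the groups.

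The size of this difference moved with the kidneys and the covariates used. Without KO-HFD mouse 3, the log2 fold change of Slc12a3 in KO was 0.57 (adjusted p = 0.0293). With the mean of the medullary genes as covariate it was 0.50 (adjusted p = 0.0403), and with the mean of 9 proximal tubule markers 0.44 (adjusted p = 0.372). Fitted on the 2 KO groups alone it was 0.70 (adjusted p = 0.0718), and without KO-SFD mouse 2 it was 0.65 (adjusted p = 0.0516). Of those 9 markers, 3 rose in the KO kidney on HFD, namely the transporters Slc5a2 (1.54), Slc5a12 (1.13) and Slc22a8 (1.44 on the log2 scale), named after their values were seen; none of the 9 was at 0, and the most abundant was Kap. Their summed level, mostly Kap, was 30164 ± 4400 FPM in KO-SFD and 26770 ± 4110 in KO-HFD, whereas their mean log2 FPM was 9.79 ± 0.06 and 10.21 ± 0.24. In WT this mean was 10.00 ± 0.18 on SFD and 10.16 ± 0.12 on HFD. A covariate that itself moves with diet shares the diet difference and can widen its error. A call lost with the proximal tubule covariate, here or below, therefore decides nothing about the gene. Averaged over the genotypes, the rise of Slc12a3 was 0.40 (0.19 to 0.62, adjusted p = 0.031), and the groups of 8 overlapped. That call was lost without any 1 of WT-SFD mouse 1 or 3, WT-HFD mouse 4, KO-SFD mouse 1 or 2 and KO-HFD mouse 4 (adjusted p up to 0.0661), and with either covariate.

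Wnk4 encodes a kinase upstream of the cotransporters. The WT-SFD kidneys held 325, 356, 350 and 310 FPM and the WT-HFD kidneys 264, 284, 257 and 273 FPM. The KO-SFD kidneys held 375, 383, 464 and 323 FPM and the KO-HFD kidneys 306, 293, 283 and 295 FPM. All 8 HFD kidneys lay below all 8 SFD kidneys, which held in this direction for 0.273% of all genes. Averaged over the genotypes, Wnk4 fell on HFD, with a log2 fold change of -0.35 (-0.50 to -0.21, adjusted p = 0.00599). The genotypes gave similar values, -0.32 in WT (-0.52 to -0.11, adjusted p = 0.228) and -0.39 in KO (-0.60 to -0.18, adjusted p = 0.0464), and their difference was -0.08 (-0.37 to 0.22). The call in KO alone was lost in 7 of 8 fits that left out a KO kidney, all but the fit without KO-SFD mouse 4. The adjusted p there was up to 0.126 (without KO-HFD mouse 3), and fits without a WT kidney were not made for this call. The averaged call stood in all 16 fits that left out a kidney, with adjusted p of 0.00222 to 0.0161. The KO call was also lost in 6 of 8 other settings: with library totals (0.0768), without the filter (0.0626), with the legacy test (0.0516), from the KO groups alone (0.161) and with the medullary (0.0728) or proximal tubule covariate (adjusted p = 0.478). With the proximal tubule markers as covariate, the averaged value was -0.27 (adjusted p = 0.191).

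Wnk1, Stk39 and Sgk1 encode the other kinases, and none was called in any comparison. Wnk1 ran from 143 FPM in a KO-SFD to 336 FPM in a WT-SFD kidney, Stk39 from 30.1 FPM in KO-HFD mouse 3 to 54.5 FPM in a KO-SFD kidney, and Sgk1 from 35.7 FPM in a WT-HFD to 81.1 FPM in a KO-SFD kidney. In each, all 4 groups overlapped. The averaged diet effects were 0.01 (-0.25 to 0.26) for Wnk1, -0.23 (-0.43 to -0.04, adjusted p = 0.178) for Stk39 and -0.32 (-0.63 to 0.00, adjusted p = 0.28) for Sgk1. With the proximal tubule covariate the last 2 were -0.03 for Stk39 and -0.01 for Sgk1 (adjusted p = 0.918 and 0.989), and the value of Sgk1 in KO went from -0.25 to 0.20, neither of them called. The ratio of Wnk4 to Wnk1 counts in a kidney, which is free of library scaling, was 1.47 to 2.68 in KO-SFD and 0.968 to 1.44 in WT-SFD. These groups did not overlap, and the two-sided exact permutation p of 0.0286 is the smallest that 4 against 4 mice can give; adjusted over 20 ratio tests it was 0.143.

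All 3 ENaC subunits were lower on HFD in WT kidneys, by -0.31 (Scnn1a), -0.26 (Scnn1b) and -0.38 (Scnn1g) on the log2 scale, without passing the edgeR test. In KO the values were -0.23, 0.05 and -0.03. For Scnn1a, which encodes the alpha subunit, the WT-SFD kidneys held 118, 126, 122 and 128 FPM and the WT-HFD kidneys 95.2, 101, 107 and 95.1 FPM. The KO-SFD kidneys held 123, 111, 149 and 119 FPM and the KO-HFD kidneys 96.4, 118, 118 and 96.1 FPM. The WT groups were apart and the KO groups overlapped. Averaged over the genotypes, Scnn1a fell by 0.27 on the log2 scale (interval -0.42 to -0.12, adjusted p = 0.0352). This call was lost in 7 of 16 fits that left out a kidney, with adjusted p up to 0.0819: those without WT-SFD mouse 3 or 4, WT-HFD mouse 1 or 4, KO-SFD mouse 3 and KO-HFD mouse 1 or 4. With the proximal tubule markers as covariate, which themselves moved with diet, the value was no smaller (-0.30), but the call was lost (adjusted p = 0.15).

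Scnn1g encodes the gamma subunit. It was 34.0, 38.2, 31.5 and 35.8 FPM in WT-SFD and 27.9, 28.9, 23.8 and 26.0 FPM in WT-HFD kidneys. KO kidneys held 31.5, 29.7, 39.1 and 34.1 FPM on SFD and 30.6, 34.8, 35.7 and 30.4 FPM on HFD. The WT-HFD kidneys were the lowest, below every kidney of the other 3 groups. HFD against SFD gave -0.38 in WT (-0.60 to -0.17, unadjusted p = 0.00172, adjusted p = 0.113; DESeq2 adjusted p = 0.0191) and -0.03 in KO (-0.25 to 0.18). KO against WT on HFD gave 0.30 (0.08 to 0.52, unadjusted p = 0.01, adjusted p = 1), the only one of the 10 without overlap in that comparison, a direction and separation found in 0.645% of all genes. The difference of the diet effects was 0.35 (0.05 to 0.66, adjusted p = 1).

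Scnn1b, for the beta subunit, ran from 43.6 to 72.0 FPM with overlap between all groups, and its averaged diet effect was -0.10 (-0.31 to 0.10). Within a kidney, the ratio of Scnn1g to Scnn1a counts was 0.296 to 0.317 in KO-HFD, above the 0.256 to 0.288 of KO-SFD and the 0.223 to 0.293 of WT-HFD. Both comparisons gave an exact permutation p of 0.0286 and an adjusted p of 0.143. In WT the ratio differed by -0.08 on the log2 scale between diets (exact permutation p = 0.543).

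Slc12a1 and Umod stand for the thick ascending limb. Slc12a1 was 1409, 993, 1691 and 954 FPM in WT-SFD and 1391, 841, 1299 and 941 FPM in WT-HFD kidneys. KO kidneys held 2043, 1211, 1843 and 1358 FPM on SFD and 1285, 1182, 419 and 808 FPM on HFD. All groups overlapped, the KO groups narrowly. HFD against SFD gave -0.81 in KO (-1.44 to -0.17, unadjusted p = 0.0156, adjusted p = 0.191) and -0.17 in WT (-0.80 to 0.45). Without KO-HFD mouse 3 the KO value was -0.55 (adjusted p = 0.352), with the medullary genes as covariate -0.39 (adjusted p = 0.266) and with the proximal tubule markers as covariate -0.15 (adjusted p = 0.897). The 5 medullary genes, none of them called, were all lower on HFD in KO (median log2 fold change -0.69) and all higher in KO than in WT on SFD (0.38). Their summed level was 265 ± 100 FPM in WT-SFD, 220 ± 62 in WT-HFD, 330 ± 99.6 in KO-SFD and 208 ± 134 in KO-HFD kidneys.

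Umod was 4874, 4853, 5140 and 4052 FPM in WT-SFD and 3862, 4006, 4943 and 3287 FPM in WT-HFD kidneys. KO kidneys held 5416, 5688, 5501 and 5544 FPM on SFD and 4310, 4253, 2543 and 3566 FPM on HFD. KO-SFD kidneys held the most, above all other kidneys, and varied least, with an SD of 114 FPM. HFD against SFD gave -0.59 in KO (-0.98 to -0.21, unadjusted p = 0.00473, adjusted p = 0.107), without overlap, and -0.23 in WT (-0.62 to 0.15). DESeq2 called the KO difference (adjusted p = 0.00696). The averaged effect was -0.41 (-0.69 to -0.14, adjusted p = 0.0808), and without KO-HFD mouse 3 the KO value was -0.44 (adjusted p = 0.225). With the medullary covariate the KO value was -0.40 (adjusted p = 0.147) and with the proximal tubule covariate -0.31 (adjusted p = 0.638), where the averaged value was -0.21 (adjusted p = 0.615). The ratio of Umod to Slc12a1 counts, 2.65 to 6.07, overlapped between the groups in all 4 comparisons.

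Side by side within a kidney, the cotransporters of neighbouring segments gave the widest shift of the 5 ratios tested. The ratio of Slc12a3 to Slc12a1 counts was 0.227, 0.365, 0.306 and 0.391 in KO-SFD and 0.473, 0.634, 2.53 and 1.05 in KO-HFD kidneys. The mean log2 ratio was higher on HFD by 1.58 (exact permutation p = 0.0286, the smallest possible, adjusted p = 0.143), and by 1.11 without KO-HFD mouse 3. In WT, the ratio ran from 0.354 to 0.766 on SFD and from 0.524 to 0.858 on HFD, a log2 difference of 0.27 (exact permutation p = 0.4).

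The second question was whether the deletion of Egfr in smooth muscle itself changed the set. None of the 10 was called between KO and WT, on either diet or averaged, by edgeR or DESeq2. On SFD, 2 had an unadjusted p under 0.05, Slc12a3 and Wnk1, as did 1307 of the 15034 genes. There, 2 did not overlap, Slc12a3 (lower in KO) and Umod (higher in KO), beside 3.98% of all genes. In the whole table, called genes made up 0.0133% on SFD, 0% on HFD and 0.0133% averaged, and the interaction also called 0% (503 genes at an unadjusted p under 0.05 and 1 called by DESeq2, against 263 and 1 on HFD). No gene of the marker lists was called between KO and WT on SFD. All 6 podocyte markers were lower in KO (median log2 fold change -0.47, 5 with an unadjusted p under 0.05, none called), with a summed level of 203 ± 19.1 FPM in KO-SFD against 274 ± 40.0 in WT-SFD; Podxl was the most abundant and none was at 0. In KO on HFD, where Slc12a3 rose, all 6 were higher (median 0.46, 5 with an unadjusted p under 0.05, none called), at 271 ± 47.8 FPM. All 5 adipocyte markers were higher in KO than in WT on SFD (median log2 fold change 0.91, 1 with an unadjusted p under 0.05, none called) and lower on HFD than on SFD in KO (-0.91, also 1). Their summed level was 203 ± 159 FPM in KO-SFD (59.8 to 398), 111 ± 36.7 in KO-HFD, 108 ± 52.7 in WT-SFD and 95.2 ± 17.2 in WT-HFD kidneys, and their part in the values of the 10 genes was not tested. Of 11 clock genes, 10 had an unadjusted p under 0.05 on SFD, again with none called, among them Ciart (2.15), Dbp (1.88) and Arntl (-1.38). The time of day at which kidneys were taken is not given in the sources used here. The part of these lists in the Slc12a3 values of KO kidneys was not tested.

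Around the 10 genes, 2 lists of other distal genes were examined, 22 regulators and 27 transport proteins, of which 16 and 24 could be tested. Of the rest, 8 (Hsd11b2, Oxsr1, Wnk3, Tsc22d3, St14, Avpr2, Kcnj1 and Fxyd2) lie in stretches of the genome for which the kidney table holds no count for any gene, and were not analysed here; Cldn14 had 30 counts in all. Of the 40, 3 passed in KO on HFD, beside 2.39% of all genes, and 4 in the averaged diet comparison, beside 4.62%; edgeR called none in the other comparisons. Kcnj16, a subunit of the basolateral potassium channel of the distal convoluted tubule, rose by 0.70 in KO (adjusted p = 0.00211) and by 0.55 on average (adjusted p = 4.1e-04). Its SFD kidneys held 316 to 462 FPM and its HFD kidneys 484 to 668 FPM, without overlap. Pvalb, the calcium-binding parvalbumin of the early distal convoluted tubule, rose by 1.57 in KO (2.97-fold, adjusted p = 0.0021) and by 1.23 on average (adjusted p = 3.9e-04). Its levels in KO were 13.8, 19.3, 16.9 and 19.6 FPM on SFD and 28.4, 49.0, 74.3 and 55.4 FPM on HFD. Both Kcnj16 and Pvalb were also higher in WT, by 0.40 and 0.89, with an adjusted p of 0.15 each; DESeq2 called both there (adjusted p = 0.0272 and 0.0361), and edgeR called Pvalb in WT without WT-SFD mouse 2 (1.13, adjusted p = 0.0319). With the proximal tubule markers as covariate, the KO call of Kcnj16 (0.52, adjusted p = 0.132) and both calls of Pvalb (1.29 in KO, adjusted p = 0.12, and 1.03 averaged, adjusted p = 0.0571) were lost, while the averaged call of Kcnj16 stood (adjusted p = 0.0425).

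The other 2 were regulators. Sgk3, a kinase related to Sgk1, rose by 0.39 averaged over the genotypes (adjusted p = 0.00688), from 12.4 to 15.6 FPM on SFD to 14.4 to 21.1 FPM on HFD. With the proximal tubule covariate it was 0.27 (adjusted p = 0.235). In KO alone it was called by DESeq2 (0.41, adjusted p = 0.0173) and by edgeR without KO-HFD mouse 1 (0.51, adjusted p = 0.0111). Ppp1r1a, an inhibitor of protein phosphatase 1, fell by 0.80 on the log2 scale in KO (adjusted p = 0.0212) and by 0.49 on average (adjusted p = 0.0326). Its KO kidneys held 353, 544, 398 and 378 FPM on SFD and 280, 252, 201 and 224 FPM on HFD, without overlap. The KO call was lost without KO-HFD mouse 3 (-0.72, adjusted p = 0.083), KO-HFD mouse 4 (-0.78, 0.0772) or KO-SFD mouse 2 (-0.65, 0.0834). The averaged call was lost in 7 of 16 such fits, those without WT-SFD mouse 3, WT-HFD mouse 1, 3 or 4, KO-SFD mouse 2 and KO-HFD mouse 3 or 4 (adjusted p up to 0.0723), and was -0.45 without KO-HFD mouse 3 (adjusted p = 0.0655). Both calls were lost with the medullary covariate (-0.70 in KO, adjusted p = 0.0581, and -0.42 averaged, adjusted p = 0.0686) and with the proximal tubule covariate (-0.44, adjusted p = 0.492, and -0.23, adjusted p = 0.578). Over the lists as wholes, the median log2 fold change in KO was -0.07 for the regulators and -0.06 for the transport proteins, beside 0.00 for all genes.

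**Figure D3:**
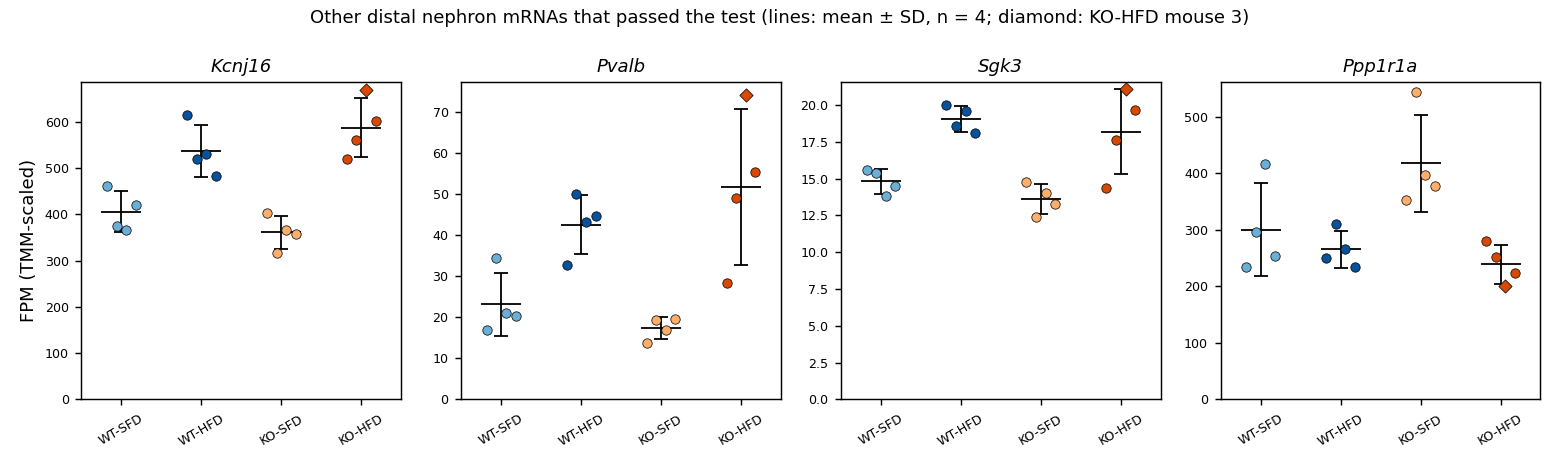
FPM (y axes from 0) of the 4 other distal genes that passed a test, in each of 16 kidneys by group (x axes), with mean and SD of 4 mice as lines and KO-HFD mouse 3 as a diamond. Kcnj16 shows no overlap between diets (316 to 462 against 484 to 668 FPM), and Ppp1r1a falls in KO (353 to 544 against 201 to 280 FPM).

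Markers of the segments themselves were read alongside. Of 5 distal convoluted tubule markers, all counted, Pvalb and Sall3 (0.72, adjusted p = 0.0365) were called higher in KO on HFD, while the most abundant, Emx1, gave -0.06, and the summed level was 192 ± 30.6 FPM in KO-SFD and 226 ± 58.3 in KO-HFD. On SFD all 5 were lower in KO than in WT (median log2 fold change -0.37, none called). Their mean log2 FPM was 4.19 ± 0.10 in KO-SFD, 4.65 ± 0.35 in KO-HFD, 4.55 ± 0.17 in WT-SFD and 4.55 ± 0.11 in WT-HFD, lowest in KO-SFD as for Slc12a3. The difference of the diet effects was positive for all 5 (median 0.44, none called), and the part of these markers in the values of Slc12a3 was not tested. Of 6 thick ascending limb markers, led by Egf, none was called; 5 were lower in KO on HFD, and their sum was 1863 ± 257 FPM in KO-SFD and 1533 ± 228 in KO-HFD. Principal cell markers, of which Hsd11b2 and Avpr2 were not analysed, were led by Aqp2 and were not called. Their sums were 1461 ± 348 FPM in KO-SFD, 1092 ± 472 in KO-HFD, 1244 ± 413 in WT-SFD and 918 ± 133 in WT-HFD. In the averaged diet comparison, where Scnn1a was called lower, 5 of 6 were lower on HFD (median log2 fold change -0.40). Of these 6, 4 had an unadjusted p under 0.05 there. In WT, 5 of 6 were lower (median -0.34). In KO, 5 of 6 were also lower (median -0.36), where Scnn1b gave 0.05 and Scnn1g -0.03. The part of the principal cell markers in the values of the ENaC subunits was not tested. None of 8 intercalated cell markers, led by Slc4a9, was called either. All 8 were lower on HFD in WT, beside the lower Scnn1a and Scnn1g there (median log2 fold change -0.31), with sums of 431 to 545 FPM in WT-SFD and 352 to 370 FPM in WT-HFD kidneys, and their part in those values was not tested. In KO the sums were 371 to 510 FPM on SFD and 354 to 455 FPM on HFD. The other defining markers of these 4 cell types were counted in the kidneys.

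The variation between mice of the same group was compared over the 45 pairs of the 10 genes, as correlations of log2 FPM after subtraction of the group mean over 16 kidneys, with permutation within groups. An adjusted p under 0.05 was reached by 4 pairs for Pearson r, and by 1 of these, Slc12a1 with Stk39, for Spearman rho. Slc12a1 and Stk39 varied together (Pearson r = 0.83, permutation p = 7.9e-04, adjusted p = 0.0355; Spearman rho = 0.89, permutation p = 1.0e-04, adjusted p = 0.0045), and r was 0.83 without the 2 kidneys farthest out. Scnn1b varied against both of them, with r = -0.78 for Stk39 (permutation p = 0.00175, adjusted p = 0.0394; rho = -0.79, permutation p = 0.00229, adjusted p = 0.0515) and r = -0.68 for Slc12a1 (permutation p = 0.00356, adjusted p = 0.0431; rho = -0.67, permutation p = 0.00861, adjusted p = 0.107), and without the 2 farthest kidneys r was -0.70 and -0.67. Slc12a3 and Umod varied in opposition (r = -0.75, permutation p = 0.00383, adjusted p = 0.0431; rho = -0.61, permutation p = 0.0172, adjusted p = 0.155), but r was -0.49 without the 2 farthest kidneys, both KO-HFD, so this relation rests on them. No batch is given by the labels, so none could be separated.

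**Figure D4:**
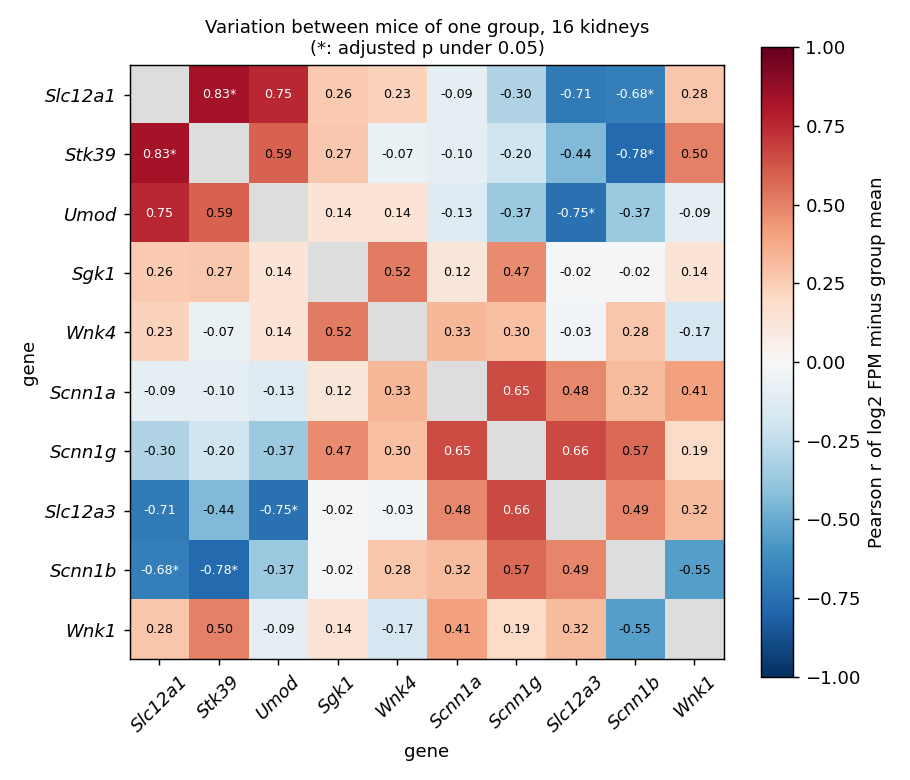
Pearson r (colour scale from -1 to 1, values in the cells) between the 10 genes on both axes, for log2 FPM minus the group mean over 16 kidneys; asterisks mark an adjusted p under 0.05. The strongest positive value is Slc12a1 with Stk39 (0.83) and the strongest negative one is Scnn1b with Stk39 (-0.78).

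Over 13420 genes with a mean of at least 1 FPM, the closest in this variation over the 16 kidneys were Slc6a17 and Zfp652 for Slc12a1 (r = 0.97 each), Nfia and Nsmf for Scnn1b (r = 0.94 each) and Fbxo28 for Wnk1 (r = 0.96). Twsg1 was closest to Stk39 (r = 0.95), Wdr66 (r = 0.90) and Tmem52b (r = 0.88) to Slc12a3, and Ppp1r1b and Wnt11 to Umod (r = 0.88 each). Tmem52b was listed among the thick ascending limb markers read above, whereas Slc12a3 belongs to the distal convoluted tubule. The closest genes were Ptpn1 for Scnn1g (r = 0.87), Kcnj10 for Scnn1a (r = 0.85), Pam16 for Wnk4 (r = 0.85) and AC164158.1 for Sgk1 (r = 0.86). Next in order came Sim2 for Slc12a1 (r = 0.96), Cdadc1 for Slc12a3 (r = 0.87), Slc51a for Scnn1b (r = 0.93), Ampd3 and Hnrnph3 for Stk39 (r = 0.94 each) and Pla1a for Umod (r = 0.87). Api5 and Ssfa2 followed for Wnk1 (r = 0.94 each), Etv4 and Ctxn1 for Scnn1g (r = 0.85 and 0.84), Pim3 and Nat10 for Scnn1a (r = 0.85 and 0.83), Vamp2 and Safb for Wnk4 (r = 0.83 and 0.81) and Gnb4 and Bmp1 for Sgk1 (r = 0.82 and 0.80). These values come from the same 16 kidneys and are given as a description.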

How the data were processed

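Kidneys of 16 mice were sequenced paired-end by a company; 14 aortae, sequenced elsewhere, were set apart because the tables were not normalised together. According to the paper, the company trimmed the kidney reads, whereas cutadapt 1.8.1 is described for the aortae. Mapping with Bowtie2 2.2.5 and Tophat2 2.0.14 (build GRCm38/mm10) came next, and featureCounts 1.4.6 gave counts per gene. The values used are these raw counts as deposited, without normalisation; strand setting and multimapping are not given in the sources used here. No count is listed on chromosomes 9, X, Y and MT or on chromosome 8 past 97427712.

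Counts were filtered by filterByExpr, scaled by TMM and fitted in 1 edgeR model over 4 groups (glmQLFit, glmQLFTest; R 4.3.3, edgeR 4.0.16, DESeq2 1.42.0 as alternative), with Benjamini-Hochberg adjustment over 15034 genes in each of 7 comparisons. Intervals are 95%. Python 3.11.15 with scipy 1.17.1 gave ratios and correlations (100000 resamples). The fit was checked on simulated counts. No 2 libraries were copies (smallest chi-square per gene 9.84 over 120 pairs). Exon lengths came from GENCODE vM21.

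The 10 genes and all lists were chosen with earlier results of these data known. Named in addition were members of the distal lists with an adjusted p under 0.05, the 3 nearest genes of each, and Egfr. Markers of endothelium, smooth muscle and renin cells, leucocytes, adipocytes, adrenal gland and blood, immediate early genes and glucocorticoid targets were read too. Alternatives were RLE factors, library totals, no filter, DESeq2, edgeR's legacy test, 2 covariates and only the groups compared. Others were an adjusted p under 0.001, an offset of 0.5 in ratios and leaving out each kidney of the groups compared. The transcript length and the 0.001 limit outside WT diet were added after seeing the data.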

Additional observations from a re-analysis of the deposited data

Results flagged for a closer look

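Of 60 groups of 4 kidneys checked over FPM and count ratios, 3 had a kidney whose gap to the nearest other was larger, as a share of the group's range, than Dixon's critical value for 4 samples; chance flags about 1 in 20 groups, which is 3 of 60. Scnn1b in KO-HFD mouse 3 was 72.0 FPM, against 57.2 to 58.6 FPM in the other 3 kidneys of its group. Wnk1 in WT-SFD mouse 1 was 336 FPM, against 247 to 261 FPM in the others. The ratio of Scnn1b to Scnn1a counts in KO-HFD mouse 2 was 0.489, against 0.595 to 0.61 in the others.

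Outside the kidney, 4 of the 10 mRNAs passed the filter in the 14 aortae, which were normalised separately and have no control tissue. The median was 402 FPM for Wnk1 (327 to 421), 10.0 FPM for Wnk4 (2.18 to 17), 35.8 FPM for Sgk1 (19.6 to 46.3) and 25.6 FPM for Stk39 (20.1 to 30.9). The sodium carriers and Umod did not pass the filter there, with 3 counts for Slc12a1, 17 for Slc12a3, 88 for Scnn1a, 34 for Scnn1b, 4 for Scnn1g and 0 for Umod over all 14 libraries. A count of 0 allows up to 3 counts, for counting error only.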

How the results depend on the processing

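None of the 70 gene-by-comparison results of the 10 mRNAs reversed as a called value under any alternative. Counts of called genes moved more. HFD against SFD in WT called 263 genes with DESeq2 and 26 at an adjusted p under 0.001. HFD against SFD in KO called 695 with DESeq2, 123 with the proximal tubule covariate, 235 from its own groups alone and 50 under 0.001. HFD against SFD averaged called 1101 with DESeq2, 345 with the proximal tubule covariate and 153 under 0.001. KO against WT on SFD called 5 without the filter, 26 with DESeq2 and 0 with library totals, with the proximal tubule covariate and under 0.001. KO against WT on HFD called 1 without the filter, with DESeq2 and with edgeR's legacy test, and the interaction called 1 with DESeq2. KO against WT averaged called 15 with DESeq2, 5 with the medullary covariate, and 1 with library totals, with the proximal tubule covariate and under 0.001. The causes were not tested.

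With 1 kidney left out, the counts ran from 99 to 132 for HFD against SFD in WT and from 203 (without KO-HFD mouse 4) to 422 (without KO-HFD mouse 1) in KO, with 206 without KO-SFD mouse 2 and 218 without KO-HFD mouse 3. They ran from 506 to 733 for diet averaged, from 0 to 4 for KO against WT on SFD and from 1 to 3 averaged, and were 0 on HFD and for the interaction. No ratio test passed in any setting. Umod was called in the averaged comparison without the filter (adjusted p = 0.0492), with the legacy test (0.0494) and with DESeq2 (0.0053). No paired analysis applied, because by the mouse numbers in the labels every kidney came from a different mouse.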

Other observations

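Of the other marker lists, none of the endothelial (5 tested), smooth muscle and renin (4), leucocyte (6), adipocyte (5), adrenal (1) and blood genes (4), the immediate early genes (7) or the glucocorticoid targets (4) was called in any of the 7 comparisons. Of the 11 clock genes, 1 was called, Nr1d1, lower on HFD averaged over the genotypes (-0.35, adjusted p = 0.0467).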
